A study of Mus musculus with 45 samples.

Results

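The comparison described here was made in inguinal fat, the subcutaneous depot of the groin, of adult mice at day 112, and asked whether scarce milk early in life left a mark on gene expression after weeks of high fat feeding. The members were the 3 arrays of the under-nourished group (LUN) and the 3 arrays of the control group of that age, 6 of the 45 arrays of the study, and all 13840 named genes were followed in them. All mice were male C57BL/6J. Control pups grew up 8 to a litter with dams that ate a breeder diet of 22 kcal% fat freely, and LUN pups, also 8 to a litter, with dams given 50% of the food eaten by control dams. After weaning every group had a chow of 11 kcal% fat until day 56, was housed singly shortly before that age, and then ate a diet high in saturated fat for 8 weeks. A source label of the day 112 controls names a chow diet, whereas the treatment protocol gives the high fat diet to all mice of this age. A further group of the same age (LON), used only for reference, came from litters of 4 whose dams ate a diet of 58 kcal% fat. Each group was 1 RNA pool of 12 mice read on 3 arrays. The arrays are therefore technical replicates, so the p-values measure array error only and the spread between mice or litters was not measured.

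White fat cells store triacylglycerol in a single large droplet and secrete leptin in proportion to the amount of fat stored, and imprinted Mest and the Wnt inhibitor Sfrp5 are known for high expression in expanding fat. The inguinal depot also contains brown-type adipocytes that make heat through Ucp1, together with vessels, nerves, immune cells and a lymph node, and it lies against skin and skeletal muscle. Most cells of the tissue carry a circadian clock, in which the activators Clock, Npas2 and Arntl switch on the Per, Cry, Nr1d and Dbp genes through E-box letters in DNA and are in turn switched off by some of these products. In a pool of whole tissue, fewer cells of a type and less RNA per cell cannot be told apart.

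Control replicate 2 stood apart from the other arrays. Its log2 signals had a correlation of 0.806 with the other control arrays of day 112, against 0.857 and 0.866 for control replicates 1 and 3, 0.935 to 0.939 for the LUN arrays and 0.960 to 0.963 for the LON arrays. Some abundant adipocyte transcripts such as Scd1 were very low on it, whereas others such as Lep and Cidea were not. Signals are given throughout on a linear scale in arbitrary units after quantile normalization. Scd1, the stearoyl-CoA desaturase, read 1327800, 30912 and 1801800 in control replicates 1, 2 and 3 and 1338900, 1389500 and 1210700 in the LUN replicates. Ltf, the granule protein lactoferrin, read 922, 230790 and 1247 in the controls and 244 to 383 in the LUN arrays. The median SD of the log2 signal was 0.565 over the 3 control arrays, 0.352 without replicate 2 and 0.395 in LUN. The main results are therefore given with and without that array, and 6.39% of probes moved by more than 1 log2 unit when it was left out. The label of the tissue fitted its markers, since the mean signal of 5 measured white adipocyte genes was 384800 to 456500 in the control and 388300 to 482200 in the LUN arrays, and 0 of the 5 was called. Adipoq and Lpl had no named probe.

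After the high fat diet, 102 genes were called between LUN and control mice. A probe or gene is called here at an adjusted p under 0.05 in limma, with adjustment over all 33012 probes. Of the probes, 58 (0.176%) were higher and 124 (0.376%) lower in LUN, or 0.551% in either direction. After scaling by the median alone 18 were higher and 75 lower. Each named gene was represented by its brightest probe, and 31 genes (0.224%) were higher and 71 (0.513%) lower. Without control replicate 2 the numbers were 14 genes (0.101%) higher and 53 (0.383%) lower, and 51 genes were called both ways. The arrays of the groups did not overlap for 17.0% of all genes, 9.72% higher and 7.23% lower. The number called depended on the array left out. Without control replicate 1 there were 567 probes higher and 653 lower, without control replicate 2 23 and 85, and without control replicate 3 1028 and 951. There were 4738 probes with an unadjusted p under 0.05.

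These calls rest on the spread between arrays, taken from all 15 groups. A fit with pools as replicates took the spread instead from the pools of other ages, about additive effects of age and early diet. No group had a second pool, so this spread also includes any diet effect that changes with age. In that fit 3 of the 32 named genes that had been called kept their call, namely Kap, Abcb9 and Foxo3. It used the mean of the 3 arrays of each pool, so 1 deviating array could move a value without widening the spread. When 1 array was left out of the main fit, the call of Kap held in 6 of 6 fits, that of Abcb9 in 5 and that of Foxo3 in 3. With the 6 compared arrays alone the smallest adjusted p was 0.176 and no probe was called, and 1432 probes were higher and 895 lower by an unadjusted p of under 0.05.

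**Figure D1:**
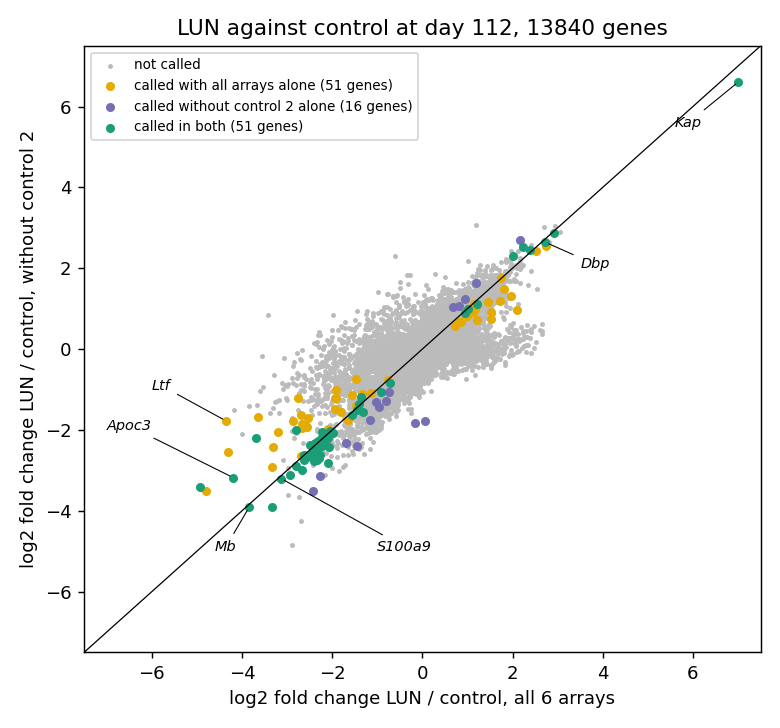
Each point is 1 of 13840 genes, with the log2 fold change of LUN over control at day 112 from all arrays on the x axis and without control replicate 2 on the y axis. Colours mark the 51 genes called in both, the 51 called with all arrays alone and the 16 called without control replicate 2 alone, and genes far from the diagonal are those whose value that array decided.

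Of the called genes the largest log2 fold change was that of Kap, which encodes kidney androgen-regulated protein, a product of the proximal tubule in mouse kidney. It was picked after its values were seen, since its mean signal lies under that of the median probe. The signal was 168, 98.5 and 322 in control replicates 1, 2 and 3, and 19914, 23055 and 24953 in the LUN replicates. All LUN arrays were thus far above all control arrays, and the mean signals of the other 14 pools of the study lay between 196 and 642. The log2 fold change was 7.01 ± 0.49 (SE, n = 3 arrays per group; adjusted p = 2.77e-11 in limma), and 6.61 without control replicate 2. It was 5.89 with an offset of 197.3 added to every raw signal, so the fold depends on how the low control signal is read. Taking pools as replicates the adjusted p was 0.00215, and over all alternatives it ran from 5.2e-16 to 0.199, with the call lost only in the fit on the 6 arrays and in the methods' t-test after adjustment. Of 9 measured kidney genes, a list added after the values were seen, 0 were called. Their mean signal was 426 to 1534 in the control and 646 to 866 in the LUN arrays. That list held neither Kap nor Klk1, and its mean signals were low, near that of the median probe (9.56 in log2). Klk1, a kallikrein of kidney and salivary gland, read 611, 215 and 681 in the control and 1616, 1796 and 1114 in the LUN arrays (log2 fold change 1.73, adjusted p = 0.0299), and lost its call without control replicate 2 (1.20, adjusted p = 0.269).

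The promoter of Kap is shown because the gene is named for its response to androgen. The RefSeq window of 300 bases in GRCm38.p6, from 250 before to 50 after the start, lies at chr6:133853618-133853917 on the minus strand. The letters ACANNNTGTNCT, an androgen receptor element, were searched on both strands and found once, on the opposite strand (in capitals), starting at position -42 from the transcription start. These letters are present in 1.31% of 32851 mouse promoters of this length, and a match is a description only.
Kap: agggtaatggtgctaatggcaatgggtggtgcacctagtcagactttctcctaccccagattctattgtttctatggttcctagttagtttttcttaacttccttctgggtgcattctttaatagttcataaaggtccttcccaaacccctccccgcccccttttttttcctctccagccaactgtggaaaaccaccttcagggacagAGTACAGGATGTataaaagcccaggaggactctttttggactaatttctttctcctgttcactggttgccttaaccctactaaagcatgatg

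Among clock genes, Dbp and Tef were higher in LUN. They encode related transcription factors of the PAR bZIP family, whose level swings strongly over the day in many tissues. The paper does not state the hour of tissue collection, and its part in the clock gene values was not tested. Dbp read 19028, 14161 and 15499 in control replicates 1, 2 and 3, and 96695, 117890 and 106950 in the LUN replicates. Every LUN array was several times above every control array, and the mean signals of the other 14 pools ran from 8438 to 29930. The log2 fold change was 2.73 ± 0.22 (SE; adjusted p = 4.21e-10), or 6.63-fold, and 2.64 without control replicate 2. Tef read 13086, 11574 and 14675 in the controls, and 25512, 26769 and 39629 in LUN, a log2 fold change of 1.20 ± 0.21 (SE; adjusted p = 0.00222), or 1.12 without control replicate 2 (adjusted p = 0.0187). With pools as replicates the adjusted p was 0.116 for Dbp and 0.283 for Tef. Over all alternatives it ran from 4.88e-12 to 0.197 for Dbp and from 0.000299 to 0.695 for Tef.

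In all, 2 of 14 measured clock genes were called higher, beside 0.224% of all genes, and 0 lower, beside 0.513%, and their median log2 fold change was 0.00, beside 0.05 over all genes. Several others lay apart on the arrays without passing the test. The repressor Nr1d2 read 2577 to 3033 in control and 6289 to 6914 in LUN arrays (log2 fold change 1.23, adjusted p = 0.155), and its relative Nr1d1 read 2349 to 4179 and 6220 to 8077 (1.07, adjusted p = 0.356). Bhlhe40, a repressor that acts at E-boxes, read 675 to 2099 in control and 3621 to 3898 in LUN arrays (1.52, adjusted p = 0.0884). In the other direction, the activator Arntl read 6462 to 8231 in control and 3479 to 5203 in LUN arrays (-0.83, adjusted p = 0.103), and its partner Clock read 623 to 744 and 202 to 340 (-1.27, adjusted p = 0.32). All these Clock signals were low, under that of the median probe (9.56 in log2). Nfil3, which competes with Dbp for its DNA sites, read 8323 to 9729 in control and 5539 to 6705 in LUN arrays (-0.56, adjusted p = 0.201). The arrays of LUN and control did not overlap for 5 clock genes that were higher and 4 that were lower, whereas those of Per1, Per2, Cry1 and Cry2 overlapped. Over all genes the arrays did not overlap for 17.0%.

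**Figure D2:**
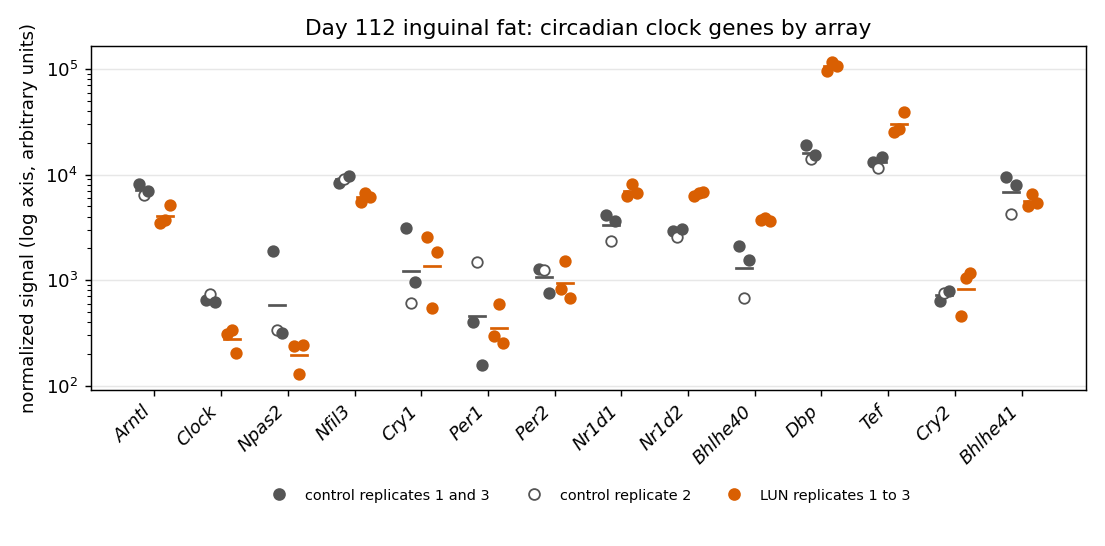
Signal of clock genes in each array on a log axis, with control arrays in grey, LUN arrays in orange and control replicate 2 as an open circle, and short lines for the geometric means. The 3 LUN arrays of Dbp lie between 96695 and 117890, above all control arrays, while those of Per1, Per2, Cry1 and Cry2 are mixed with the controls.

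The promoters of the called pair are printed to show the E-box letters CACGTG, the site of Clock and Arntl, which 7.15% of promoters of this length hold. Both annotated promoters of Tef have 1 such site (in capitals; position -127 in the window shown, chr15:81802423-81802722, plus strand). The window of Dbp (chr7:45704997-45705296, plus strand) holds none, which says nothing of sites outside it. E-box letters were also found in the promoters of Per1, Cry1, Ciart, Bhlhe41 and Dusp1.
Tef: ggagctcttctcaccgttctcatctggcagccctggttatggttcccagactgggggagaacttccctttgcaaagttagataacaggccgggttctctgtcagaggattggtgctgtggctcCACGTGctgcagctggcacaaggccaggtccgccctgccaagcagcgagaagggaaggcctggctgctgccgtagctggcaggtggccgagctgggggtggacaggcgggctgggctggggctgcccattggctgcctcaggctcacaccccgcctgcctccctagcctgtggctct
Dbp: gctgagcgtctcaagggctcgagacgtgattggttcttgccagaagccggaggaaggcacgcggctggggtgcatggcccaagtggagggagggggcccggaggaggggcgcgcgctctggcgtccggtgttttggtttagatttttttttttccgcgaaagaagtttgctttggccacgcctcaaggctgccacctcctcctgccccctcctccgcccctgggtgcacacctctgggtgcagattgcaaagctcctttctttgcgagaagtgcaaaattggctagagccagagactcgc

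Dusp1, Sptbn1, Slc27a2 and Abcb9 were also higher in LUN. Dusp1, a phosphatase that turns off MAP kinases, read 23281, 23529 and 27744 in the controls and 48630, 40783 and 53959 in LUN (log2 fold change 0.94 ± 0.16 SE, adjusted p = 0.00204), and the groups did not overlap. It kept its call when any of the 6 arrays was left out and lost it under median scaling (adjusted p = 0.0922, range 8.78e-05 to 0.695 over all alternatives). Sptbn1, the beta spectrin that lines the plasma membrane, read 49640, 46962 and 47510 in the controls and 111680, 90416 and 88007 in LUN (1.00 ± 0.20 SE, adjusted p = 0.00819, and 0.99 without control replicate 2). Without LUN replicate 1 its log2 fold change was 0.89 and its call was lost. Slc27a2, an acyl-CoA synthetase for very long chain fatty acids, read 615, 828 and 323 in the controls and 2425, 1717 and 2589 in LUN (2.01 ± 0.47 SE, adjusted p = 0.0373, and 2.31 without control replicate 2), and lost its call without control replicate 3 or without any LUN array. Abcb9, a lysosomal peptide transporter, owed much of its log2 fold change of 2.23 (adjusted p = 0.0245) to LUN replicate 3, which read 20654 against 2133 and 2656 in the other LUN arrays and 773 to 1555 in the controls. Without that array the log2 fold change was 1.19 and the call was lost.

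The calls of a further set of higher genes were lost without control replicate 2. Cavin1, a coat protein of caveolae, read 5158, 5223 and 6091 in the controls and 13172, 12318 and 10920 in LUN (1.14, adjusted p = 0.0176, and 1.11 with 0.0729 without that array). It was the 1 called of 8 caveolae genes, beside 0.224% called higher over all genes. The immediate early gene Egr1 had a log2 fold change of 0.97 (adjusted p = 0.0268), and 0.83 without that array. Cpa3, a protease of mast cell granules, had 0.86 (adjusted p = 0.0323), and 0.68 without it. It was the 1 called of 8 mast cell markers, beside the same 0.224% over all genes. The mean signal of these markers was 5004 to 8192 in the control and 10060 to 19720 in the LUN arrays. Their median log2 fold change was 0.47, with 3 of the 8 below 0, and 0 were called without control replicate 2. Serping1, the C1 inhibitor of complement, was chosen after its values were seen, with a mean signal of 354680 in control and 748370 in LUN (1.13, adjusted p = 0.00729, and 0.93 with 0.0831 without that array).

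Genes of skeletal muscle fibres were lower in LUN. All 9 measured muscle markers of the 13 listed were called lower, against 0.513% of all genes. Ckm, the muscle creatine kinase, read 116760, 123450 and 117890 in control replicates 1, 2 and 3, and 16602, 23045 and 18664 in the LUN replicates. The groups were wide apart, with a log2 fold change of -2.63 ± 0.19 (SE; adjusted p = 2.77e-11), and -2.61 without control replicate 2. The log2 fold changes of the 9 markers fell in the narrow range of -2.63 to -2.05, with a median of -2.32 (-2.33 without control replicate 2). Among them were the fast troponins Tnnt3 (-2.50), Tnnc2 (-2.39) and Tnni2 (-2.22), the light chain Mylpf (-2.32), skeletal actin Acta1 (-2.21), the calcium buffer Pvalb (-2.05) and the calcium pump Atp2a1 (-2.35). Their mean signal was 239100 to 283200 in the control and 53160 to 54440 in the LUN arrays, so every array of a pool had nearly the same muscle level.

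A broader list of fast fibre, sarcomere and muscle metabolism genes was added after the values were seen. In it 17 of 22 measured genes were called lower, beside 0.513% of all genes, with a median of -2.07. Mb, the oxygen store myoglobin, read 13000, 10441 and 10716 in the controls and 845, 534 and 1092 in LUN (-3.84 ± 0.65 SE, adjusted p = 0.00118, and -3.91 without control replicate 2). Myot, a protein of the Z disc, read 5637, 5148 and 7295 in the controls and 822, 892 and 1408 in LUN (-2.56, adjusted p = 0.00303). Hjv, the hemojuvelin of muscle and liver, had a log2 fold change of -2.62 (adjusted p = 0.000678). Of 6 slow fibre genes, also added later, 0 were called and the median was 0.12.

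The difference in muscle level between LUN and control changed sign between ages, and its cause was not tested. The mean Ckm signal of the control pools at days 5, 10, 21, 56 and 112 was 6603, 6746, 136100, 4560 and 119400 in turn, and that of the LUN pools 8773, 31000, 41740, 58510 and 19440. The median log2 fold change of LUN over control for the 9 markers was positive at days 5 (0.39), 10 (2.16) and 56 (3.49) and negative at days 21 (-1.82) and 112 (-2.32). LON pools varied as much, with a Ckm of 205600 at day 56 and 3170 at day 112. With pools as replicates the adjusted p was 0.782 for Ckm, 0.806 for Tnnt3 and 0.839 for Tnnc2. Over all alternatives that of Ckm ran from 2.16e-13 to 0.782.

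Fabp3, the fatty acid binding protein of heart, muscle and brown fat, was lower together with the muscle genes. It read 11960, 7743 and 9360 in the controls and 1891, 2298 and 1909 in LUN, with no overlap (-2.24 ± 0.35 SE, adjusted p = 0.00044, and -2.39 without control replicate 2). The part of the muscle markers in this result was not tested. With pools as replicates its adjusted p was 0.617, and over all alternatives it ran from 1.9e-05 to 0.617. Rxrg, a retinoid X receptor of muscle and fat, was also lower (-1.36, adjusted p = 0.000942), with a mean signal of 4054 in control and 1555 in LUN.

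**Figure D3:**
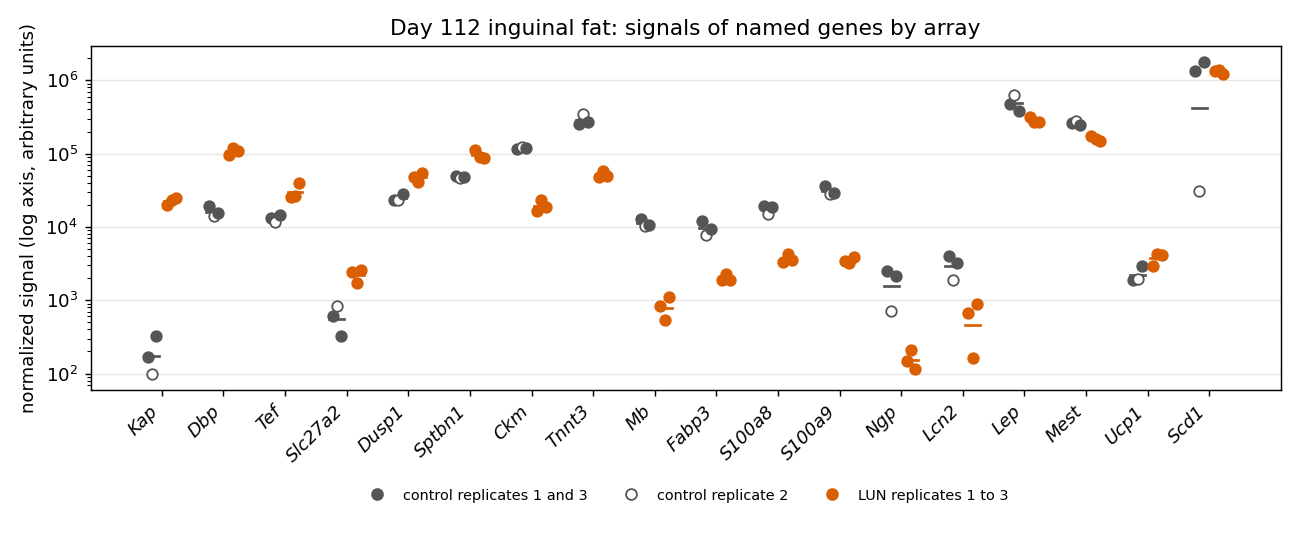
Signal of 18 genes in each of the 6 arrays on a log axis, with control arrays in grey, LUN arrays in orange, control replicate 2 as an open circle and short lines for the geometric means. Kap and Dbp stand higher in all LUN arrays, and Ckm, Mb, Fabp3, S100a9, S100a8 and Ngp stand lower in all of them.

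Another group lower in LUN was made of granule proteins and alarm proteins of neutrophils. S100a9, a subunit of calprotectin, read 35710, 28033 and 29118 in control replicates 1, 2 and 3, and 3473, 3214 and 3888 in the LUN replicates. The groups did not overlap, with a log2 fold change of -3.13 ± 0.22 (SE; adjusted p = 2.77e-11), or 8.76-fold lower, and -3.20 without control replicate 2. Its partner S100a8 read 19141, 14948 and 18677 in the controls and 3372, 4266 and 3496 in LUN (-2.24 ± 0.17 SE, adjusted p = 7.75e-11, and -2.36 without control replicate 2). Ngp, a neutrophil granule protein, read 2492, 711 and 2106 in the controls and 148, 209 and 116 in LUN (-3.34 ± 0.54 SE, adjusted p = 0.000671, and -3.91 without control replicate 2). Its LUN signals lay under that of the median probe (9.56 in log2), and its log2 fold change ran from -3.91 to -2.33 over all alternatives. Lcn2, the siderophore-binding lipocalin, read 4072, 1882 and 3193 in the controls and 673, 161 and 876 in LUN (-2.67 ± 0.47 SE, adjusted p = 0.00222), and without LUN replicate 2 it was -1.92, with its call lost. The mean signals of S100a9 in the other 14 pools ran from 6134 in LON at day 112 to 105500 in LUN at day 5, so that the LUN pool of day 112 was lowest.

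The list of neutrophil genes was drawn up after these values were seen, and 5 of 15 measured were called lower (0.513% of all genes) and 0 higher (0.224% of all genes). The median was -1.20, and 10 of the values were below 0 and 5 above. Ltf was 1 of the 5, and its call was lost without control replicate 2 (-1.77, adjusted p = 0.264). That call held in 2 of 6 fits with 1 array left out. Camp, the cathelicidin of neutrophil granules, read 4387 to 5119 in control and 622 to 2116 in LUN arrays without passing the test (-1.99, adjusted p = 0.0844). The members did not move as 1 group. Retnlg, a resistin-like protein of neutrophils, read 61345, 123610 and 74712 in the controls and 161780, 159460 and 159460 in LUN (0.95, adjusted p = 0.0521), and was called higher without control replicate 2 (1.25, adjusted p = 0.00663). The acute phase genes Lrg1 (-0.92, adjusted p = 0.0354) and Saa3 (-1.46, adjusted p = 0.0321, and 0.143 without control replicate 2) were lower as well. The call of Saa3 held in 2 of 6 fits with 1 array left out. Of 17 macrophage markers 0 were called, with a median of 0.11, and Adgre1, the F4/80 antigen, read 11455 to 13878 in control and 12477 to 15450 in LUN arrays. With pools as replicates the adjusted p of S100a9 was 0.214, within a range of 2.48e-13 to 0.214 over all alternatives.

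The promoters of S100a9 and Ngp are printed because both kept their call whichever array was left out, with the letters TTNNGCAA of C/EBP-type sites in capitals, searched on both strands. C/EBP factors drive granule genes in maturing neutrophils, and 10.8% of promoters of this length hold these letters. The S100a9 window (chr3:90695672-90695971, minus strand) has 1 match, at position -236 on the opposite strand. The Ngp window (chr9:110419558-110419857, plus strand) has 2. The letters were also found in the promoters of Lcn2 and Ltf, and not in those of S100a8 and Camp.
S100a9: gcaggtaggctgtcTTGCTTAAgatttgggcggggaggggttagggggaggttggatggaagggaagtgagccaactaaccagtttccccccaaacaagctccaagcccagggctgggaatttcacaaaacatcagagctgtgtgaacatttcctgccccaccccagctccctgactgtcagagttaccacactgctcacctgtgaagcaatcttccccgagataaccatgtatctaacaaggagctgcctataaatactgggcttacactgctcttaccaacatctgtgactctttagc
Ngp: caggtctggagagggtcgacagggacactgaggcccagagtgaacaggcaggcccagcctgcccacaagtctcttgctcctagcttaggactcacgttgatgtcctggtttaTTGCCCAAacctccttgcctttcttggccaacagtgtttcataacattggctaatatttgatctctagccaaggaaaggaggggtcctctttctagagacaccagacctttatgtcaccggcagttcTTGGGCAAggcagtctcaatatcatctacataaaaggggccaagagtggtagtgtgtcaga

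Some genes known for secretion by liver and genes of lipid handling were lower in LUN. Apoc3, an apolipoprotein that slows the lipolysis of triacylglycerol-rich lipoproteins, read 7838, 32401 and 1903 in the controls and 293, 461 and 583 in LUN (-4.20 ± 0.57 SE, adjusted p = 3.2e-05). The spread of the controls was wide but did not reach the LUN arrays, and without control replicate 2 the log2 fold change was -3.18 (adjusted p = 0.000569). Ttr, the thyroxine carrier transthyretin, read 3515, 5528 and 6613 in the controls and 1784, 346 and 767 in LUN (-2.70, adjusted p = 0.016, and 0.0687 without control replicate 2). Its call held in 3 of 6 fits with 1 array left out. Apoc3 and Ttr were the 2 called lower of 14 measured genes of the list, beside 0.513% of all genes, and 0 were higher. The list had a median of -0.73, with 9 values below 0 and 5 above, the highest being 1.42. Alb, the serum albumin, was not called (-0.61, adjusted p = 0.478). Angptl4, a secreted inhibitor of lipoprotein lipase, read 191140, 174680 and 130030 in the controls and 67143, 90888 and 65754 in LUN (-1.15 ± 0.25 SE, adjusted p = 0.0245), and lost its call without control replicate 2 (adjusted p = 0.105) or without LUN replicate 1 or 3. Pmvk, a kinase of the mevalonate pathway, was the 1 called of 15 sterol genes (-0.71, adjusted p = 0.0496), beside 0.513% called lower over all genes. The call of Pmvk held in 2 of 6 fits with 1 array left out, those without control replicate 2 or 3. Foxo3, a forkhead factor inhibited by insulin signalling, read 6028, 1515 and 549 in the controls and 207 to 341 in LUN (-2.80, adjusted p = 0.016), with a spread among controls of its own, and was -1.89 without control replicate 1, with the call lost. Its call held in 3 of 6 fits with 1 array left out. The LUN signals of Foxo3 and Apoc3 lay under that of the median probe (9.56 in log2).

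Of the genes that mark fat expansion, 0 passed the test at day 112, and of the brown fat markers named by the study Fabp3 passed and Ucp1 and Cidea did not. Lep, the leptin gene, read 481430, 628770 and 386550 in the controls and 314460, 266900 and 271190 in LUN. All LUN arrays were lower than all control arrays, and the log2 fold change was -0.79 ± 0.28 (SE; adjusted p = 0.181), or -0.61 without control replicate 2. Mest read 260890, 278270 and 242810 in the controls and 174970, 157600 and 147770 in LUN (-0.70 ± 0.23 SE, adjusted p = 0.138). All 5 measured genes of the expansion list had values below 0, the highest at -0.018, with a median of -0.70, and 0 were called. Without control replicate 2 the median was -0.61, with 4 values below 0 and 1 above.

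Ucp1 read 1870, 1933 and 2955 in the controls and 2912, 4281 and 4157 in LUN (0.76 ± 0.22 SE, adjusted p = 0.105), with overlapping arrays, and these levels were far under the 779500 of the control pool at day 21. Without control replicate 3 Ucp1 was called (0.97, adjusted p = 0.0135), and over all alternatives the adjusted p ran from that value to 0.97. Cidea, a lipid droplet protein of brown fat, read 74798, 128630 and 118270 in the controls and 110360, 86358 and 107770 in LUN (-0.05, adjusted p = 0.973), and its sign changed with the arrays and the scaling used. Dio2, Prdm16, Ppara, Ppargc1a, Ppargc1b and Cpt1b also missed the threshold. Of 18 brown fat genes Slc27a2 was called higher and Fabp3 lower, both described above, with a median of 0.14. Over all genes 0.224% were called higher and 0.513% lower. Fabp4, the fatty acid binding protein of fat cells, read 872590 to 1047700 in control and 1060900 to 1104200 in LUN arrays (0.22, adjusted p = 0.829).

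Across the 44 gene lists the medians of most lay near that of all genes (0.05). For 47 respiratory chain genes, 15 ATP synthase genes, 13 genes of the TCA cycle, 14 of fatty acid oxidation and 64 mitochondrial ribosomal proteins the medians were -0.14, -0.01, -0.01, -0.08 and -0.08, with 0 genes called. The 15 fatty acid synthesis genes had a median of 0.04 and 27 collagen and matrix genes 0.09, again with 0 called. Medians below -0.5 were found for the skeletal muscle markers, the liver-type genes and the expansion genes.

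**Figure D4:**
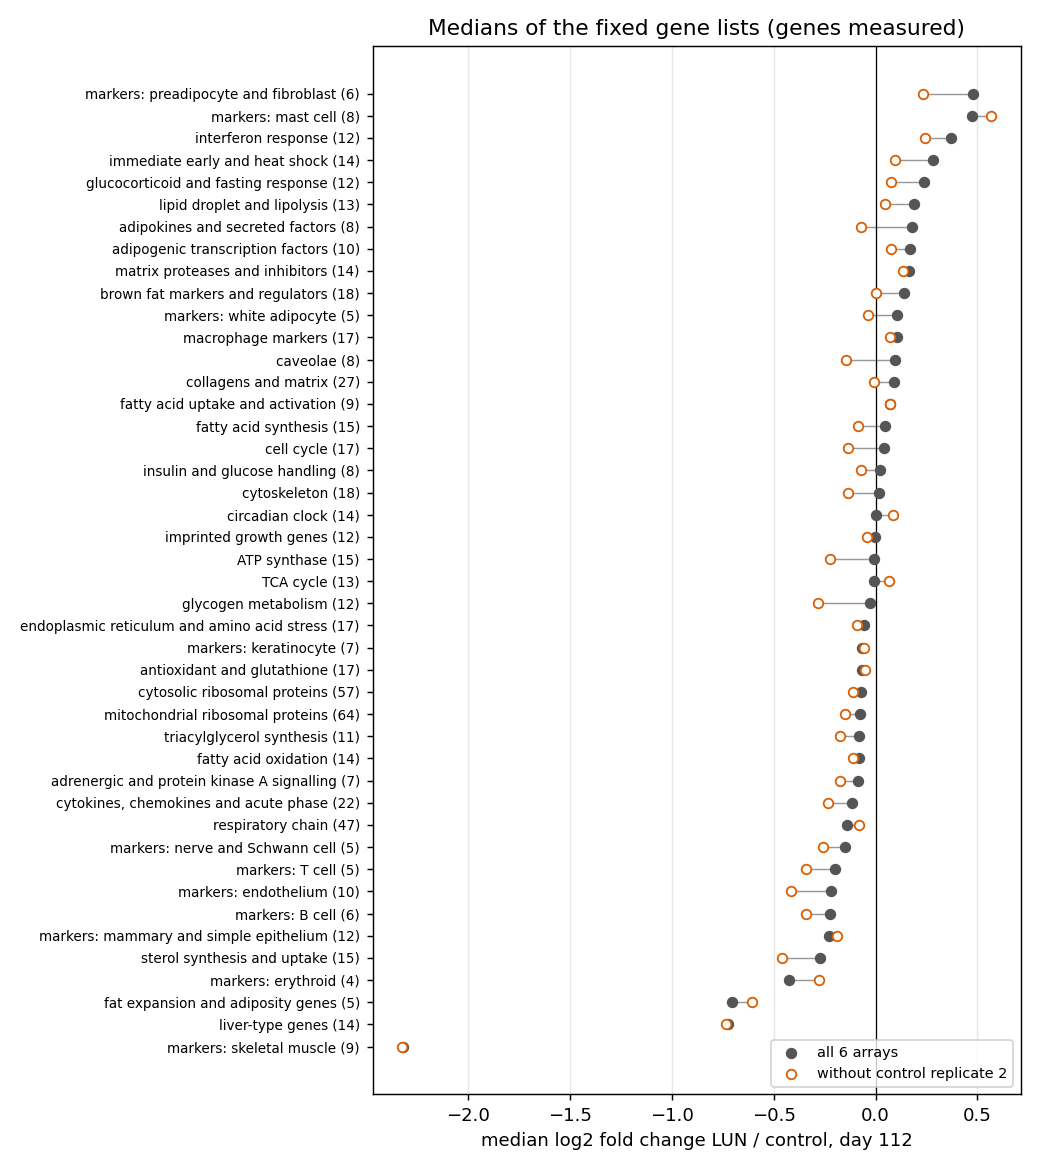
Median log2 fold change of LUN over control at day 112 for each of 44 gene lists, with all arrays and without control replicate 2, on a linear axis. The skeletal muscle markers stand apart at -2.32 and -2.33, and most lists lie near 0 both ways.

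The effect of early under-nutrition at day 112 was set against that at day 56, when the mice had eaten chow, with a test of the difference itself. Genes whose effect was more positive at day 112 numbered 25 (0.181%) and more negative 58 (0.419%). In probes these were 62 (0.188%) and 97 (0.294%), or 30 and 62 after median scaling, 33 and 115 after cyclic loess, and 30 and 86 without control replicate 2 of day 112. All 9 muscle markers were among the lower, with a median of -5.71, since LUN had the higher muscle level at day 56 and the control at day 112. Outside muscle, Kap (8.35), Dbp (3.09, adjusted p = 3.58e-08), Tef (1.33) and Bhlhe40 (2.59, adjusted p = 0.031) had a more positive effect at day 112, and S100a9 (-3.33), Ngp (-3.72), Lcn2 (-4.53) and Apoc3 (-4.59) a more negative one. Among probes called at both ages, 31 in number (17.0% of those of day 112 and 46.3% of those of day 56, where 0.203% of probes were called), 0 had the same sign. With day 21, where 2.71% of probes were called, 37 called probes were shared (20.3% of those of day 112 and 4.13% of those of day 21), and 32 had the same sign. Muscle probes were not left out of these overlaps. The median log2 fold change of the 9 muscle markers was 3.49 at day 56, -1.82 at day 21 and -2.32 at day 112. The part of muscle in the overlaps was not tested.

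Against day 21, at weaning, the effect was more positive for 78 genes (0.564%) and more negative for 112 (0.809%). In probes these were 146 (0.442%) and 185 (0.560%), or 40 and 103 after median scaling and 97 and 183 without control replicate 2 of day 112. Lep had the largest positive difference (5.04, adjusted p = 5.88e-10) of the called genes above the median probe whose day 112 arrays did not overlap. Its mean signal at day 21 was 48080 in control and 912 in LUN, and at day 112 it was 498900 and 284200. Ucp1 also differed (3.02), from 779500 in control and 161500 in LUN at day 21 to the low levels of day 112. The difference for Fabp3 was 0.13, as it was lower in LUN at both ages, at 245800 and 47780 at day 21. Apoc3 (-7.36), the acyl-CoA thioesterase Acot1 (-5.51), Apoc4 (-4.73) and Apoc2 (-4.08) differed in the negative direction, and so did Prodh, a proline dehydrogenase (-4.72), which control replicate 2 read far above the other controls. The 3 apolipoproteins and Acot1 had a higher signal in LUN than in control at day 21. Dbp (3.72) and S100a9 (-2.25) differed from their values at day 21 as well.

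**Figure D5:**
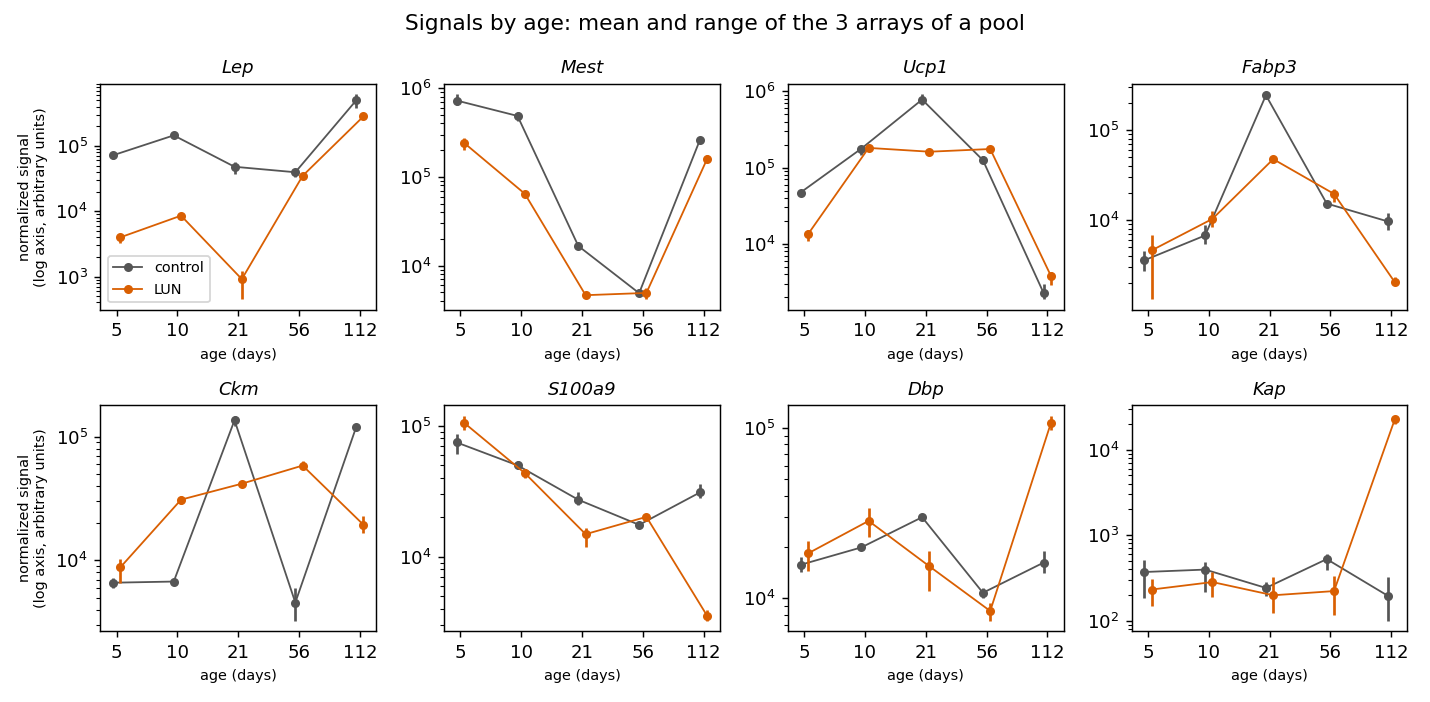
Mean signal of Lep, Mest, Ucp1, Fabp3, Ckm, S100a9, Dbp and Kap in the control and LUN pools at days 5, 10, 21, 56 and 112 on log axes, with bars for the range of the 3 arrays. Kap and Dbp leave the level of the other pools in LUN at day 112 alone, and Ckm moves up and down in both groups.

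At day 112 the LUN pool was also tested against the LON pool, which had the same high fat diet. In LUN 46 genes (0.332%) were higher and 73 (0.527%) lower. In probes these were 81 (0.245%) and 135 (0.409%), or 76 and 432 after median scaling. Dbp was higher in LUN than in LON (2.71, adjusted p = 3.11e-10), as was Kap (5.15), whereas S100a9 was not called (-0.80, adjusted p = 0.102), the LON mean being 6134. Lep was lower in LUN than in LON (-1.50) and Ucp1 higher (1.69, adjusted p = 1.06e-05), with LON means below control for Ucp1 (1226). The muscle markers were higher in LUN than in LON, with a median of 2.15. Some differences from control were shared by the LON pool. Mean signals in control, LUN and LON were 24850, 47790 and 44620 for Dusp1 and 48040, 96700 and 151000 for Sptbn1. In that order they were 5490, 12140 and 17800 for Cavin1, 14050, 445.5 and 586.7 for Apoc3, and 9687, 2033 and 674.8 for Fabp3. Egr1, Mb and Ttr were shared too. So were neutrophil genes, with 17590, 3711 and 6162 for S100a8, 3049, 570.1 and 1272 for Lcn2, and 1770, 157.5 and 515.1 for Ngp. The muscle markers were also lower in LON than in control, with a median log2 fold change of -4.39. Slc27a2 (588.4, 2244 and 441.9) and Abcb9 (1091, 8481 and 682.1) were not. The LON arrays were numbered as a series of their own, so an array batch and the LON diet cannot be told apart.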

How the data were processed

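RNA of inguinal fat, 1 pool of 12 mice for each of 15 groups, was hybridised by the authors to Applied Biosystems Mouse Genome Survey arrays, 3 per pool, and read by chemiluminescence. The deposited raw values are linear intensity signals, all above 0, and their background step is not stated in the labels or the paper. The authors also deposited log2 values after quantile normalization. Here the raw intensities of all 45 arrays were quantile-normalized and taken to log2 with no offset (correlation with the deposited values 0.9998). Group means were fitted to 33012 probes in limma 3.58.1 (R 4.3.3), with a prior of 2.74 degrees of freedom, and two-sided p-values were adjusted after Benjamini and Hochberg with a threshold of 0.05. RefSeq or array annotation gave 1 symbol for 14411 probes, several for 247 and none for 18354. Of 13840 genes, 540 had more than 1 probe. Precision is limited by 3 arrays per group, and no detection call was used. The fit was tested on simulated data. Figures were drawn in matplotlib 3.10.9.

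Genes were named as the up to 12 called with the largest change in each direction among probes above the median signal with no overlap of the arrays that kept their sign and call when control replicate 2 was left out, up to 4 called members of each list, genes named by the study, and up to 6 in each direction for the other comparisons, with exceptions stated. The comparison, the lists and this rule were chosen with earlier results of these data known. Alternatives were the deposited values, median scaling, cyclic loess, an offset, a filter on dim probes, a replicate block, the 6 arrays alone, an intensity trend, array weights, pools as replicates, the methods' t-test and each array left out. Sequences are from RefSeq promoters of GRCm38.p6.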

Additional observations from a re-analysis of the deposited data

Results flagged for a closer look

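The differences below are between the effect of early under-nutrition (LUN over control) at day 112 and the effect at another age, on the log2 scale, and each passed the test of the difference itself in limma. They include array error only, and no explanation was tested. The calls of Hip1 against day 21 and Tnrc18 against day 56 each held in 5 of 17 alternatives, with adjusted p up to 0.149 and 0.189, and that of Bhlhe40 against day 56 in 9 of 17 (up to 0.134). Muscle marker levels differed far more between pools from day 10 on than at day 5. Several of the muscle genes listed below are themselves those markers.

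Set against day 56, the effect at day 112 was more positive for Kap (8.35), Klk1 (3.29), Dbp (3.09), Apbb1ip (3.04), Bhlhe40 (2.59), Wasf2 (2.58), Tnrc18 (2.46), Egr1 (1.89), Sptbn1 (1.43), Tef (1.33) and Dusp1 (1.09). It was more negative for the muscle genes Mybpc2 (-6.53), Ckm (-6.36), Tnnt3 (-6.15), Actn3 (-6.08), Tnnc2 (-5.87), Acta1 (-5.71), Tpm1 (-5.59), Mb (-5.57), Pvalb (-5.54), Myot (-5.48), Hjv (-5.29), Atp2a1 (-5.01 and -4.02 by 2 probes), Rpl3l (-4.05) and Myom1 (-3.68), and for Mlf1 (-4.78) and Fabp3 (-2.58). Neutrophil genes that did so were Lcn2 (-4.53), Ngp (-3.72), S100a9 (-3.33) and S100a8 (-2.23). Others were Apoc3 (-4.59), Ttr (-3.98) and Foxo3 (-3.64).

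Set against day 21, the effect was more positive for Kap (7.41), Lep (5.04), Dbp (3.72), Ppp1r3b (3.57), Bhlhe40 (3.38), Hip1 (3.04), Ucp1 (3.02), Hr (2.60), Sptbn1 (1.83) and Tef (1.68). It was more negative for Apoc3 (-7.36), Acot1 (-5.51), Apoc4 (-4.73), Prodh (-4.72), Apoc2 (-4.08), Retreg1 (-4.01), Lcn2 (-3.96), Myom1 (-2.81), S100a9 (-2.25), Angptl4 (-2.25), Pmvk (-1.68) and S100a8 (-1.14). Prodh read 121820 in control replicate 2 and 6014 and 7524 in the other control arrays.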

How the results depend on the processing

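The number of called probes depended strongly on the arrays used, and on the spread the test was given. LUN against control at day 112 gave 18 higher and 75 lower under median scaling (where the median of all probes was 0.128), 19 and 64 with array weights, 0 and 0 with the 6 arrays alone, 127 higher among probes above the median signal, and 109 higher with an intensity trend and robust prior. The methods' t-test gave 1543 higher and 941 lower unadjusted, and 0 and 0 adjusted. Leaving out 1 array gave 23 to 1028 higher and 61 to 951 lower, with 567 and 653 without control replicate 1, 23 and 85 without control replicate 2, and 1028 and 951 without control replicate 3. With pools as replicates 46 and 104 were called, but 29 of 32 named calls were lost.

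For the difference from day 56, median scaling gave 30 higher and 62 lower (the median of all probes was 0.318), cyclic loess 33 higher, the filter on dim probes 168 higher, and leaving out 1 array 22 to 431 higher and 65 to 424 lower. For that from day 21, median scaling gave 40 and 103, the filter 271 and 320, and leaving out 1 array 97 to 353 and 134 to 378. For LUN against LON, median scaling gave 432 lower, cyclic loess 156 and 233, the filter 142 and 289, and leaving out 1 array 38 to 75 and 72 to 112. The cause was not tested.

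Arrays that share a number were not paired, since their deviations had correlations of -0.014 to -0.030, and the replicate block gave 42 higher and 111 lower. Signs turned only for genes that were never called on all arrays. Under median scaling Cidea was 0.10, Gpd1 0.0695 and Adipor1 0.0011. Under cyclic loess Prdm16 was -0.0893 and Cpt1b -0.0655. With array weights Cidea was 0.0206, Ppara 0.20 and Prdm16 -0.0781. Leaving out 1 array gave -0.29 to 0.10 for Cidea, -0.37 to 0.35 for Ppara, -0.15 to 0.42 for Prdm16, -0.49 to 0.38 for Cpt1b, -0.24 to 2.69 for Scd1, -0.0352 to 1.44 for Dio2 and -0.29 to 0.013 for Ppargc1b. Of the 32 named calls, median scaling ended 9, array weights 10 and cyclic loess 3, while the deposited values and the offset ended 0. Without control replicate 2, 24 of the 32 were kept.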

Other observations

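Among called genes outside the lists, and chosen after their values were seen, 2 secreted Wnt modulators of fibroblasts were higher in LUN. The mean signal of Sfrp2 was 17928 in control and 47073 in LUN (log2 fold change 2.11, adjusted p = 0.0277, and 0.97 with 0.203 without control replicate 2). That of Sfrp4 was 4197 and 6807 (0.72, adjusted p = 0.0467, and 0.56 with 0.253 without it). The lower tail held genes with a wide spread among the control arrays, such as Lpar4, a receptor for lysophosphatidic acid, which read 41867, 108970 and 1337 in the controls and 414 to 921 in LUN (-4.80, and -3.52 with an adjusted p of 0.101 without control replicate 2). Of the 182 called probes, 78 carried no single gene symbol and were not described.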
